A study of Mus musculus with 2 samples.

Results

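The stretch of mouse chromosome 11 described here holds the CC chemokine genes that follow Ccl2, and it was read by 4C-seq, the sequenced form of circular chromosome conformation capture, from a viewpoint at the Ccl2 promoter. Its members are the ends of DpnII restriction fragments that occur once in the genome (multiplicity 1) and whose fragment lies 5 to 160 kb from the viewpoint on the side of higher coordinates, positions 81853193 to 82008193 in mm9. There were 647 such ends, on 358 fragments, of 424613 unique ends in the file. The choice rests on position and copy number and used no read of the ends chosen. Reads entered only through the viewpoint, taken as the fragment whose end has the most reads.

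The cells were primary bone marrow-derived macrophages (BMDMs) of C57BL/6 mice, grown in medium conditioned by L929 cells, taken on day 7 of differentiation and labelled UT, which is read here as untreated. In 4C-seq, cross-linked chromatin is cut and ligated, and inverse PCR from the viewpoint recovers the DNA joined to it. There was 1 library for Ccl2 and 1 for a viewpoint at Jun, so each value describes 1 library, no test between samples was possible and no p-value is given. The Ccl2 library held 1248937 reads on unique ends of chromosome 11, 901507 of them farther than 5 kb from the viewpoint, and the Jun library held 1652054 on chromosome 4.

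As background, CC chemokines are small secreted proteins that guide leukocytes through G-protein-coupled receptors, and macrophages are a major source of several of them after inflammatory stimuli. Ccl2, Ccl7 and Ccl12 encode ligands of CCR2, the receptor that brings monocytes out of the bone marrow and into tissue. Ccl11 encodes eotaxin, a ligand of CCR3 that attracts eosinophils, and Ccl8 and Ccl1 encode ligands of CCR8 in the mouse, a receptor of subsets of T cells. These genes lie side by side, and the 4C profile shows how often the chromatin at each was ligated to the promoter of Ccl2.

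The gene annotation at hand is RefSeq on GRCm38.p6, not mm9, so genes were placed by their distance from the start of Ccl2. DpnII cuts at GATC, and the deposited file gives each fragment's centre and length, so the cut sites in promoter sequences could be set against the fragment boundaries. The promoters of 38 genes within 2000 kb of Ccl2 held 59 such sites, and all 59 fell within 8.5 bp of a boundary when the start of Ccl2 was put 0.877 kb from the viewpoint on the higher side. The best offset elsewhere within 3 kb matched 14. The sites ran from -1893 to 1929 kb around Ccl2, and 3 of them lay inside the cluster.

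RefSeq promoter entries (GRCm38.p6) were found for 3 of the 6 cluster genes, and their sequences are shown with the cut sites marked. Each is the 250 bases before the start, 5′ to 3′ on the gene's own strand, with the DpnII site GATC and the site GTAC of the second cutter, which the labels write as Csp61, in capitals. Ccl12 is at chr11:82101595-82101844 on the plus strand, Ccl8 at chr11:82114935-82115184 on the plus strand and Ccl1 at chr11:82179813-82180062 on the minus strand.
Ccl12: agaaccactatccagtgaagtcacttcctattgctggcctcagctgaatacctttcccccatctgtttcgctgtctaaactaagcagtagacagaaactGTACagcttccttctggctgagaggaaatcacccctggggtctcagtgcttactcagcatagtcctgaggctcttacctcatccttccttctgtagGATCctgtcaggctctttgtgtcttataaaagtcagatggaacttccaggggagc
Ccl8: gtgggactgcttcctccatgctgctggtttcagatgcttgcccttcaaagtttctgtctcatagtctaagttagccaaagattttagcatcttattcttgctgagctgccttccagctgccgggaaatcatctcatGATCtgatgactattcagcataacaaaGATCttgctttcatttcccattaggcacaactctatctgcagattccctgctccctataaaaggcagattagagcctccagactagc
Ccl1: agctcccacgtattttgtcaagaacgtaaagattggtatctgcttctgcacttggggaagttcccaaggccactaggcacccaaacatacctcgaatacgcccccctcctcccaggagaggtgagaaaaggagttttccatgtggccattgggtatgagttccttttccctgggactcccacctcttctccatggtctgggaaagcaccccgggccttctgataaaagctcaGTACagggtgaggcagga
The Ccl12 sequence holds 1 DpnII site and 1 second-cutter site, and that of Ccl8 holds 2 DpnII sites. That of Ccl1 holds 1 second-cutter site and no DpnII site. The DpnII sites tie Ccl12 and Ccl8 to fragment boundaries, while Ccl1 was placed by its distance from Ccl2 alone. Among 32851 promoter entries cut to the same 250 bases, 41.9% held GATC and 31.5% held GTAC. Searched on both strands, TATAAA stood in the sequences of Ccl12 and Ccl8 and in 12.4% of all entries. A kappa-B site, the motif of NF-κB, matched on both strands of the same stretch of the Ccl1 sequence and in neither of the other two sequences, against 7.25% of all entries. TGACTCA, an AP-1 motif, was in none of the 3 sequences and in 4.46% of all entries. These matches describe letters in the windows shown and nothing more.

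So placed, the gene bodies stood at 11.01 to 12.83 kb for Ccl7, 23.1 to 28.3 kb for Ccl11, 67.1 to 68.7 kb for Ccl12, 80.5 to 82.1 kb for Ccl8 and 142 to 145 kb for Ccl1. The annotation lists 1 further gene in the range, the long non-coding RNA gene Gm38913 at 31.9 to 36.5 kb. All of the chemokine genes named for the stretch thus lie inside it. A gene window is the gene body with 2 kb added on each side, and the 6 ranges before, between and after the 5 windows are called spaces.

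Most of the cluster was ligated to the Ccl2 promoter often enough to be seen. Of the 647 ends, 548 had at least 1 read, 84.7% (exact Clopper-Pearson 95% interval 81.7 to 87.4%). They held 183676 reads, which is 20.4% of the reads beyond 5 kb on 0.152% of the unique ends there. Such a concentration is not particular to the cluster. At the same distances on the side of lower coordinates, 388 of 658 unique ends had a read (59.0%, 55.1 to 62.8%). Those 658 ends held more reads in total, 216455. In the cluster, an end had a median of 70 reads, with quartiles of 10.5 and 309 and a highest value of 4692. The reads were unevenly shared, with 50% of them on 58 ends, 8.96% of all, and 10.2% on the top 5. At the limits of the range, the 2 ends in the last 1 kb outside the 5 kb limit had 1753 and 2526 reads and the 2 ends just inside it 564 and 588. The 8 ends in the 1 kb inside the 160 kb limit had 0 to 277 reads and the 2 ends just outside it 42 and 84.

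**Figure D1:**
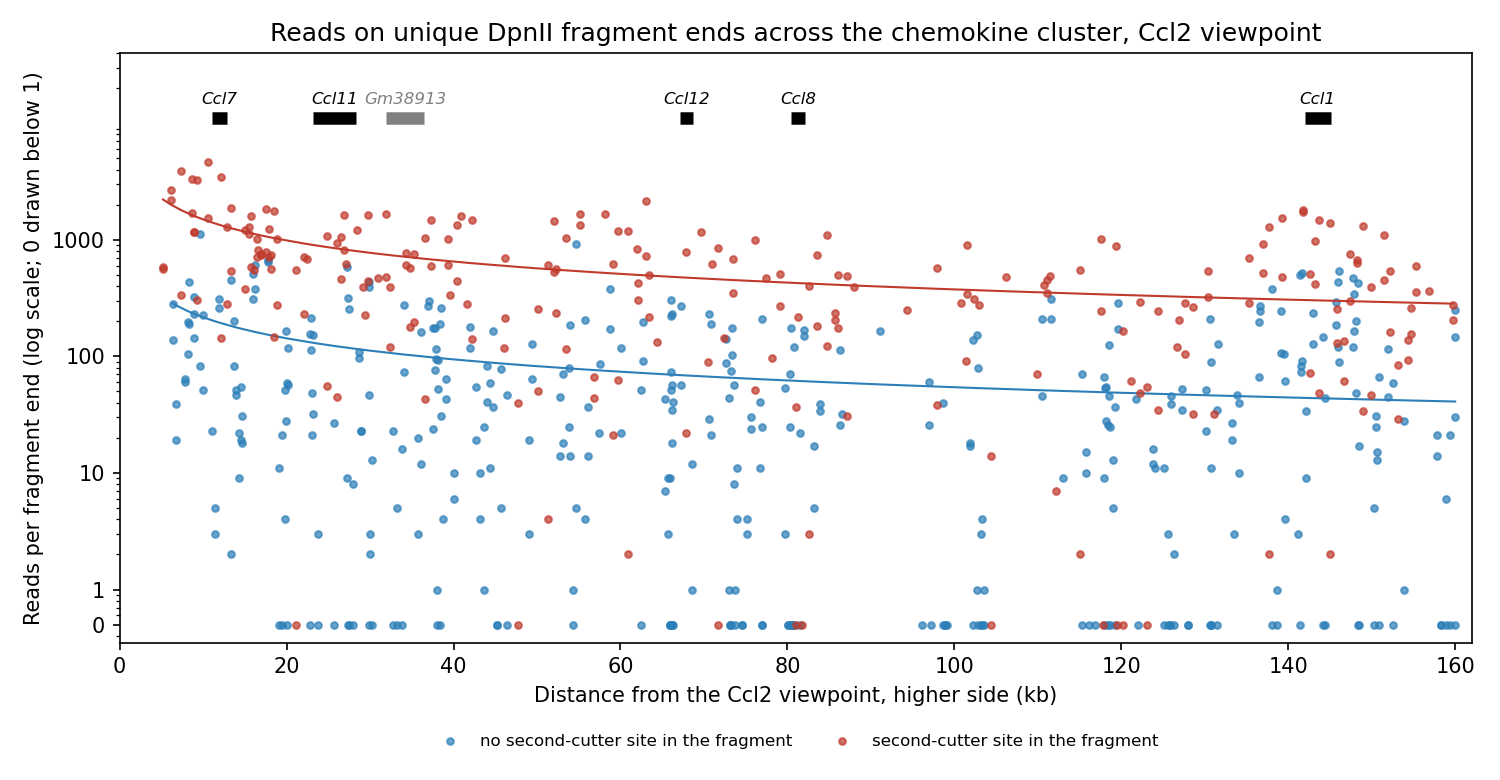
Each point is 1 unique fragment end, with its distance from the Ccl2 viewpoint in kb on the x axis and its reads on a log y axis (0 is drawn below 1). Colour gives whether the fragment holds a second-cutter site, the lines are the fall with distance scaled to each class, and bars mark gene bodies. Ends of fragments with such a site (median 446 reads) mostly stand above the others (median 26 reads), and points crowd above both lines near Ccl1.

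Reads per end fell from 706 at 5 to 20 kb to 139 at 80 to 120 kb, and were 210 at 120 to 160 kb. A straight line of log10 reads per end on log10 distance was fitted through 10 bins of equal log width. The bins took in all ends of the range, those around Ccl1 included, and the line had a slope of -0.60 (standard error of the fit 0.07). This line, scaled so that all ends together have as many reads as were observed, is the expectation used below, and a ratio is observed over expected reads. Intervals on ratios are exact Poisson 95% intervals of the reads, which cover counting error alone. They leave out the scatter between ends, given by the quartiles, and reads from PCR without molecular identifiers are not independent molecules.

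A feature of the fragments that the choice of ends did not use went with a large difference in reads. The protocol cuts the ligated DNA again with the second cutter before inverse PCR, and not every DpnII fragment holds a site for that enzyme. Which fragments do was inferred from the lengths in the file. The 240 ends on fragments with such a site, 37.1% of all ends, held 81.5% of the reads, with a median of 446 (quartiles 141 and 833). The 407 ends on fragments without one held 18.5%, with a median of 26 (quartiles 2.5 and 106). A read was found on 230 of the 240 ends (95.8%, interval 92.5 to 98.0%) and on 318 of the 407 (78.1%, 73.8 to 82.1%). Of the 99 ends with no read, 89 were on fragments without a site. On the lower side of Ccl2 the medians were 123 and 0, and on the higher side of Jun 769 and 120. Windows differ in their share of such fragments, so the main ratios are also given against the line scaled apart for the 2 fragment classes, a setting added after seeing the data and called the class-scaled ratio.

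The 2 ends of a fragment share their place but are read separately. Of 289 fragments with both ends unique, 214 had reads on both, 62 on 1 and 13 on neither. As a description, the reads of the 2 ends had a Spearman rho of 0.51 over the 289 fragments. It was 0.10 over the 99 with a second-cutter site and 0.34 over the 190 without. Within a class, 1 end was thus a weak guide to the other, and the cause was not tested.

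Ccl7, the gene nearest to Ccl2, was covered throughout. All 31 ends of its window had a read (100%, 88.8 to 100%), from 2 to 4692 reads, with a median of 144 and quartiles of 27 and 496. The window held 20500 reads, 1.04 times the expectation (1.02 to 1.05) and 1.15 times by the class-scaled line. The end with the most reads in the whole cluster, at position 81858737 and 10.5 kb, lay in this window just before the gene and held 22.9% of the window's reads. Without its top end the window's ratio was 0.829. Over 16 alternative settings it ran from 0.566 to 1.45 and was above 1 in 9, so no direction is given for Ccl7.

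Ccl11, the eotaxin gene, had 42 of 51 ends with a read (82.4%, 69.1 to 91.6%), from 0 to 1632 reads, with a median of 109 and quartiles of 8.5 and 452. Its 15872 reads were 0.775 times the expectation (0.763 to 0.788) and 0.793 times by the class-scaled line. The body of the neighbouring Gm38913 had 19 of 22 ends with a read and stood at 0.835 and 0.745 by the same measures. Both lay below the level of their distance.

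Ccl12 had 24 of 30 ends with a read (interval of the share 61.4 to 92.3%), from 0 to 1159 reads, with a median of 32 and quartiles of 4 and 85.3. Its 3747 reads were 0.546 times the expectation (0.529 to 0.564). Left out are 1613 reads on 2 ends of the window with several copies in the genome, which cannot be placed. This window had the highest share of ends on fragments without a second-cutter site among the 5, 26 of 30 (86.7%), and against the class-scaled line its ratio was 1.02. Only 4 ends of the window are on fragments with a site, and the part of the fragment classes in the low value was not tested. With the same line for all ends, the gene body alone stood at 0.840 and the window at 1.04 when the start of Ccl2 was moved up by 1 kb. The same gene stood at 0.304 by 3′ ends and 0.730 by 5′ ends.

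Ccl8 was the least covered gene of the cluster. In its window 21 of 32 ends had a read (65.6%, 46.8 to 81.4%), from 0 to 746 reads, with a median of 23.5 and quartiles of 0 and 156. Its 3253 reads were 0.500 times the expectation (0.483 to 0.517) and 0.581 times by the class-scaled line. In the gene body alone, 6 of 12 ends had a read and the ratio was 0.294. By 3′ and 5′ ends the window stood at 0.513 and 0.479. It passed 1 only against the steeper line of the lower side, at 1.31.

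Ccl1, the farthest of the genes, had the highest ratio. In its window 32 of 35 ends had a read (91.4%, 76.9 to 98.2%), from 0 to 1793 reads, with a median of 130 and quartiles of 55.5 and 467. Its 12542 reads were 2.48 times the expectation (2.44 to 2.52) and 2.44 times by the class-scaled line. Over all ends, the median of Ccl1 was above that of Ccl11, Ccl12 and Ccl8, which lie closer to Ccl2. This order depended on the fragment class. On fragments with a second-cutter site the medians were 334.5 for Ccl1, 616 for Ccl11, 435.5 for Ccl12 and 199.5 for Ccl8. On fragments without one they were 92, 23, 23.5 and 11. By 3′ and 5′ ends the ratio was 2.80 and 2.08, and without the top end 2.19. That top end, with 1793 reads, shares its fragment with the next highest end, with 1746 reads, which stayed in. The ratio without the whole fragment was not computed. Counted by ends with a read it was 1.17, a measure with little room to rise where most ends have a read.

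The fragments that hold the gene starts are each a pair of ends, and their values are given 3′ end first. The start of Ccl1 lies in a fragment of 1353 bp with a second-cutter site, at position 81993249, with 1380 and 2 reads on its ends. The start of Ccl8 lies in a fragment of 144 bp at 81928657 with 0 and 175 reads, and that of Ccl12 in a fragment of 202 bp at 81915393 with 57 and 268. For Ccl11 it is a fragment of 129 bp at 81871361 with 152 and 32 reads. For Ccl7 it is a fragment of 128 bp at 81859217 with 23 reads on its unique end. The other end of the Ccl7 fragment has 2 copies in the genome, so its 1143 reads cannot be placed. These 4 shorter fragments have no second-cutter site, so their values cannot be set against that of Ccl1 on equal terms.

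The spaces between the genes were ligated about as often as the genes. The space from 5 kb to the Ccl7 window had reads on 23 of 23 ends and stood at 1.00 times the expectation, and that between Ccl7 and Ccl11 had reads on 37 of 40 ends and stood at 1.15. The space of 34.9 kb between Ccl11 and Ccl12 had reads on 130 of 141 ends (92.2%, 86.5 to 96.0%) and stood at 1.03. The space between Ccl12 and Ccl8 stood at 0.643, with 31 of 40 ends, and the 55.9 kb between Ccl8 and Ccl1 at 0.928, with 128 of 165 ends (77.6%, 70.4 to 83.7%). Beyond Ccl1, 49 of 59 ends had a read and the ratio was 1.42. By the class-scaled line the 6 spaces stood, in this order, at 0.908, 0.879, 1.00, 0.857, 0.961 and 1.42.

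Grouped as 2 classes, the 5 gene windows had reads on 150 of 179 ends (83.8%, 77.6 to 88.9%) and the 6 spaces on 398 of 468 (85.0%, 81.5 to 88.2%). Their median ends had 70 and 70.5 reads. The gene windows stood at 0.953 and the spaces at 1.02 times the expectation, a ratio of 0.933, and by the class-scaled line at 1.07 and 0.972, a ratio of 1.10. The side of 1 on which the ratio fell changed with the setting, so these data give no direction for genes against spaces. Without Ccl1 and the range beyond 130 kb the ratio was 0.810, and 0.994 with the class-scaled line.

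**Figure D2:**
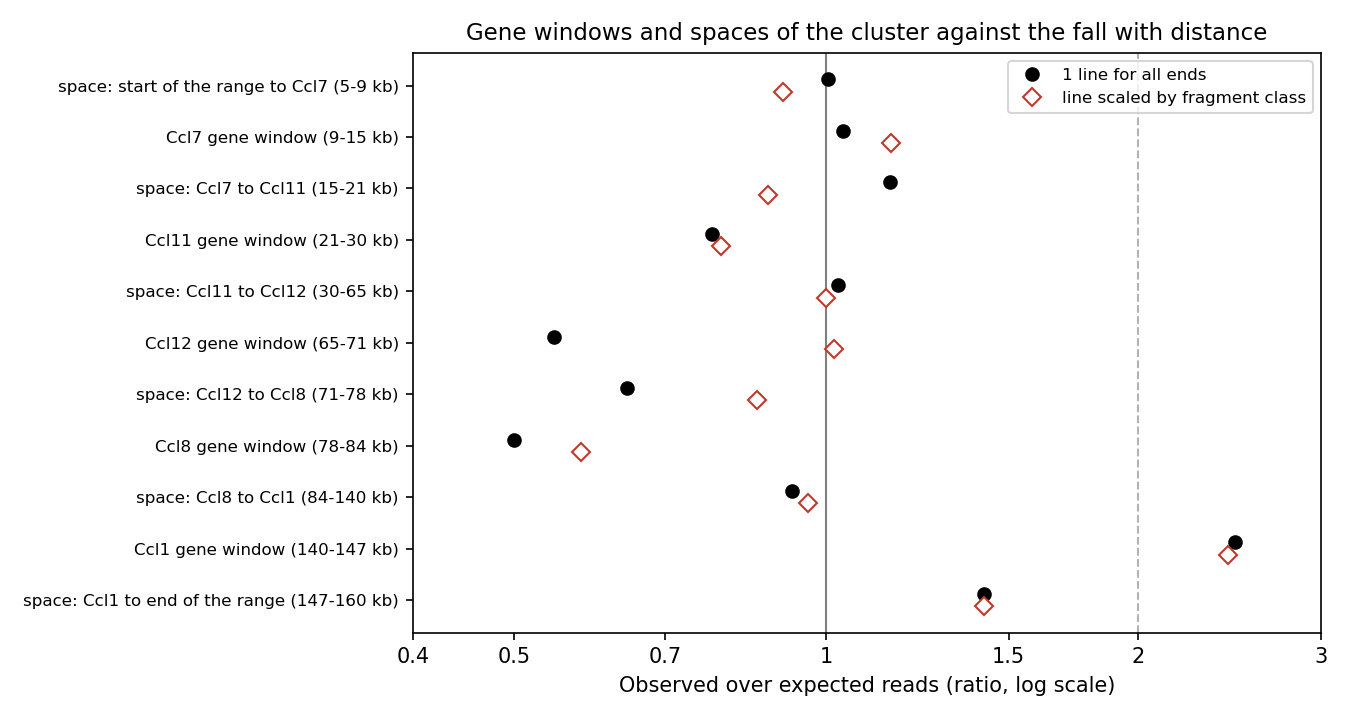
Observed over expected reads (log x axis) of the 5 gene windows and 6 spaces of the cluster, in order of distance from Ccl2. Filled points use 1 line for all ends and open diamonds the line scaled by fragment class. Ccl1 stands at 2.48 and 2.44, Ccl8 at 0.500 and 0.581, and Ccl12 moves from 0.546 to 1.02.

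Set against all places of the same range, 1 of the 5 gene windows, that of Ccl1, reached 2 times the expectation. None did when only fragments with a second-cutter site were used, where Ccl1 stood at 1.999, or when ends with a read were counted. Of 143 windows of 5 kb moved by 1 kb, each with at least 5 ends, 7.69% did so (11 windows), and 8.39% by the class-scaled line (12 windows). These windows overlap, and all 11 lay between 134 and 150 kb and all 12 between 133 and 152 kb, so they are 1 stretch around Ccl1. On the lower side 7.95% of windows reached 2 times that side's own line. The median of the 5 gene windows was 0.775 and that of the 143 windows 0.922, and by the class-scaled line they were 1.02 and 0.916. At the low end, 19.6% of the 5 kb windows stood at 0.5 or less, and 10.5% by the class-scaled line, and the Ccl8 window sat at that limit by the first measure and above it by the second.

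The raised stretch was wider than Ccl1. The 5 kb before the gene body on the side of Ccl2 stood at 2.80 times the expectation (19 of 22 ends with a read), the body itself at 2.37 (14 of 16 ends) and the 5 kb beyond it at 2.06 (26 of 28 ends). By the class-scaled line these were 3.54, 1.98 and 1.93. In steps of 2.5 kb, the step that ended at 135 kb had a ratio of 0.161 and the next step 2.69, and class-scaled these were 0.533 and 2.25. All 6 ends of the first step are on fragments without a second-cutter site. The ratio then stayed between 2.16 and 3.03 as far as 150 kb. Class-scaled it varied more, with 2.25, 2.58, 4.82, 1.95, 1.76 and 2.23 in the steps from 135 to 150 kb. The 4 steps from 150 to 160 kb had 1.31, 0.613, 3.195 and 0.353, the third of them on 3 ends, and class-scaled 1.61, 0.446, 1.53 and 0.588. The 3 highest windows of 5 kb that do not overlap lay at 139 to 144 kb (2.97), 145 to 150 kb (2.24) and 134 to 139 kb (2.07). The window of 5 kb with the highest class-scaled ratio, 3.54, lay at 137 to 142 kb, next to the gene body and not on it.

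The single ends with the most reads lay in gene windows and in spaces. Of the 5 ends with the most reads in the cluster, all on fragments with a second-cutter site and all within 13 kb of the viewpoint, 2 lay within 2 kb of Ccl7 (4692 and 3286 reads), 1 in its gene body (3480 reads) and 2 in the space before it (3864 and 3342 reads). Beyond 40 kb the highest end, 2132 reads at 63.0 kb and position 81911201, was in the space between Ccl11 and Ccl12, at 8.997 times the expectation and 4.30 times by the class-scaled line. The next 2 were both ends of 1 fragment of 159 bp at 81989937, 141.7 kb from the viewpoint and just outside the body of Ccl1, with 1793 and 1746 reads. The lowest 5 kb windows, at 43 to 48 kb (0.270), 19 to 24 kb (0.280) and 121 to 126 kb (0.292), lay in spaces except for the second, which overlaps the Ccl11 window. By the class-scaled line they were at 0.375, 0.445 and 0.313.

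**Figure D3:**
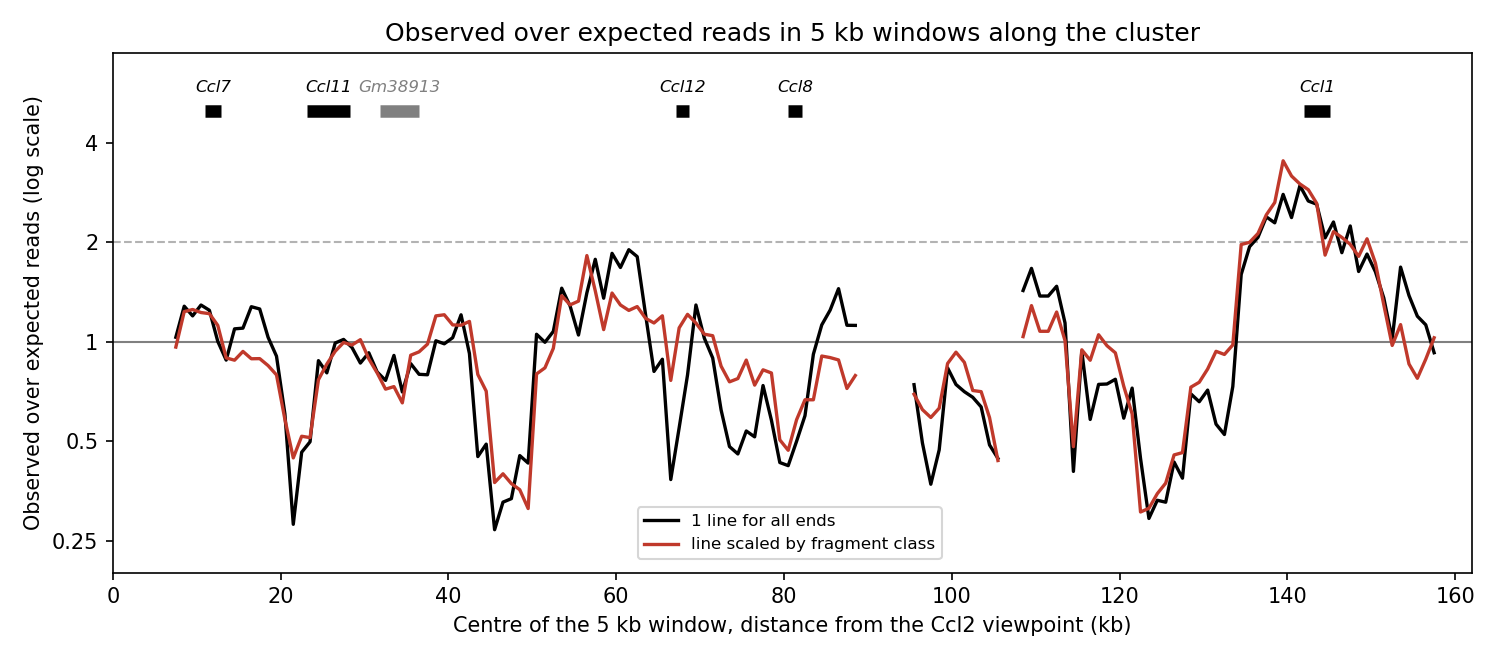
Observed over expected reads (log y axis) in 5 kb windows moved by 1 kb, against the distance of the window's centre from the Ccl2 viewpoint in kb. The black line uses 1 expectation for all ends and the red line the expectation scaled by fragment class, bars mark gene bodies, and gaps are windows with fewer than 5 ends. Both lines pass 2 around Ccl1 and nowhere else.

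The cluster side differed from the other side of the same promoter in how reads fell with distance. At 5 to 20 kb the cluster had 706 reads per end and the lower side 1618, and at 20 to 40 kb 288 and 775. At 40 to 80 kb the values were 231 and 209, at 80 to 120 kb 139 and 56.3, and at 120 to 160 kb 210 and 18.7. The lower side was thus higher within 40 kb and the cluster side higher beyond 80 kb, by 11.2 times in the last class. Among ends on fragments with a second-cutter site the ratio of cluster to lower side ran in the same order, 0.462, 0.447, 1.29, 2.98 and 9.37. The slope of the lower side was -1.42 (standard error of the fit 0.17). Over the whole range the cluster side held 183676 reads and the lower side held more, 216455.

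The share of ends with a read followed the same pattern. From 20 to 40 kb it was 85.6% (77.3 to 91.7%) in the cluster and 97.7% (91.9 to 99.7%) on the lower side. From 120 to 160 kb it was 82.8% (76.3 to 88.2%) and 20.6% (14.8 to 27.3%). These intervals, like the others on shares, treat ends as independent, although the ends of a fragment are paired and their reads were correlated. They also leave out replicate spread, so they describe each side and give no test between the sides. At the distance of the Ccl1 window the lower side had 6 of 23 ends with a read and 634 reads, and the Ccl1 window had 13.0 times as many reads per end. At the distances of Ccl12 and Ccl8 the factors were 1.53 and 1.99, and at those of Ccl7 and Ccl11 they were 0.446 and 0.344. Since the sides crossed between these genes, the order of the genes against the lower side follows the distance classes above.

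The higher side of the Jun viewpoint, another locus in another library, is given beside these values as a description. There 597 of 613 ends between 5 and 160 kb had a read (97.4%, 95.8 to 98.5%), and reads per end were 804 at 5 to 20 kb and 427 at 120 to 160 kb. Its slope was -0.29 (standard error of the fit 0.10). The libraries differ in depth and in viewpoint, so no difference between them is drawn.

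**Figure D4:**
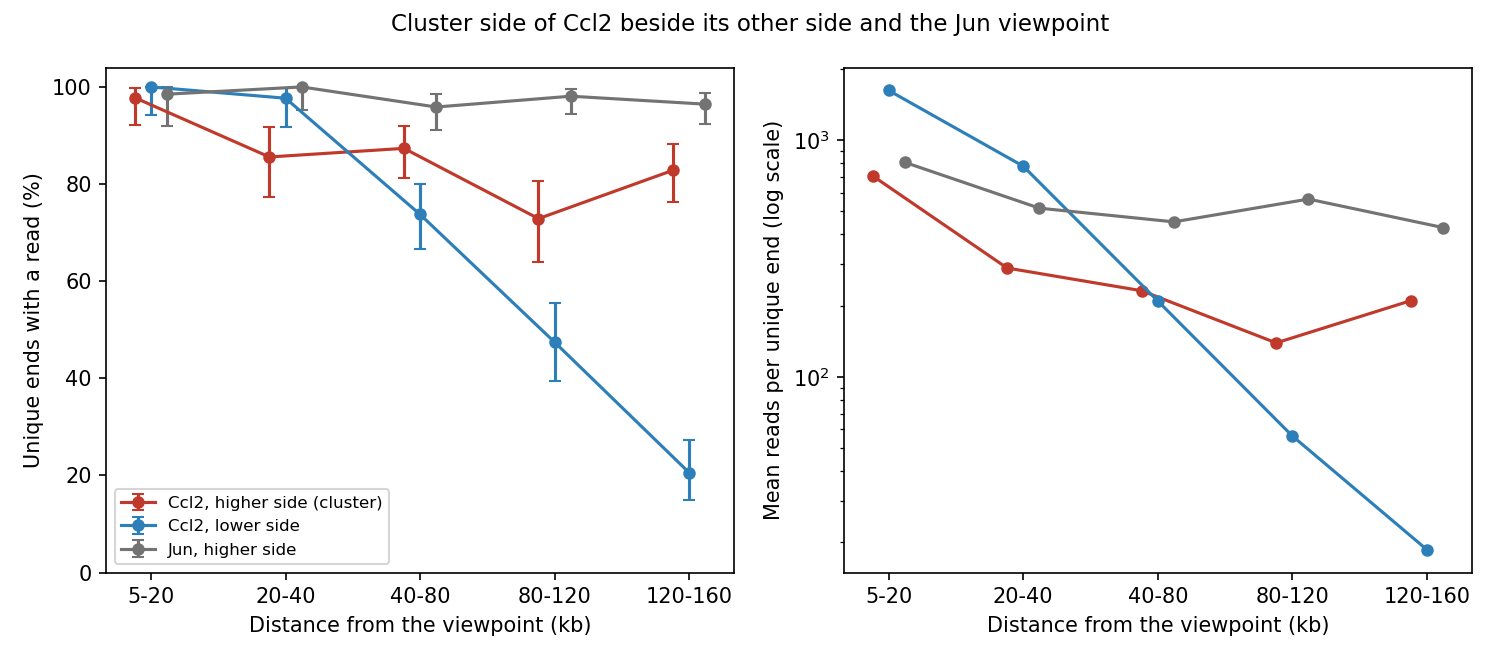
Left, percentage of unique ends with a read by distance class in kb, with exact 95% intervals as bars, for the cluster side of Ccl2, its lower side and the higher side of Jun. Right, mean reads per unique end (log axis, without error bars). The lower side of Ccl2 falls to 20.6% and 18.7 reads per end at 120 to 160 kb, where the cluster side stands at 82.8% and 210.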

How the data were processed

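4C-seq was run on macrophage chromatin with DpnII as first and a second 4 bp cutter, and 8 PCRs were pooled, per the labels' protocols. Coordinates are those of mm9, the build that the submitters' processing notes name; an aligner and its version are not stated in them or in the labels. The deposited values are estimated counts of reads per fragment end, not scaled to depth, in bins of 16 bp, with further columns for copy number and lengths per the file headers, whose names are abbreviated and stand 1 cell to the right of their values. That they are reads was inferred from the values, and they were rounded to whole reads. That the last 2 columns are distances to second-cutter sites was also inferred, from the header abbreviations and from values that grow by the fragment length along runs of fragments, and a fragment was taken to lack such a site where the distance exceeds its length. The viewpoint, position 81848193, is the fragment whose end has the most reads.

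Lines, ratios and exact intervals were computed with Python 3.11.15, numpy 2.4.6, pandas 2.3.3, scipy 1.17.1 and scikit-learn 1.9.0. The class-scaled fit was also run on simulated independent ends drawn from such a line with the 2 fragment classes. That checks the code and not whether the line suits these data. The genes, spaces and settings were chosen with earlier results of these data known. The text names all 6 cluster genes, every space, other annotated genes in the range, the 5 ends with the most reads and the 3 highest and 3 lowest 5 kb windows; further ends were named after their values were seen. Strands of Ccl7 and Ccl11, used in 1 alternative, come from general knowledge. Results were recomputed under other windows, expectations, counting rules and fragment filters.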

Additional observations from a re-analysis of the deposited data

Results flagged for a closer look

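Ends of multiplicity above 1 were left out of the values above, and within the cluster they carried 15897 reads on 47 of 58 ends (81.0%, exact 95% interval 68.6 to 90.1%). That is 7.97% of all reads on ends in the range, and the comparisons do not use them. The ends had a median of 5.5 copies in the genome, so their reads cannot be placed in the cluster. Of these ends, 41 lay in the space between Ccl8 and Ccl1, with 6974 reads, and the 5 gene windows held 0 to 2 each. In the Ccl12 window 2 such ends had 1613 reads, beside 3747 on its unique ends. The windows of Ccl7, Ccl11 and Ccl1 had 1143, 704 and 424 such reads, and that of Ccl8 had 0.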

How the results depend on the processing

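With 1 library per viewpoint, counting error and not replicate spread is known, and no paired analysis was possible because the labels give no replicates. The share of ends with a read, 84.7%, moved beyond its interval only for fragments with a second-cutter site (95.8%) and for those without (78.1%). Reads per end of the cluster over the lower side were 0.863. They were 0.763 by 3′ ends, 0.973 by 5′ ends, 0.896 with ends of all multiplicities, 0.807 with fragments of 100 bp or more, 0.923 with a second-cutter site, 0.993 from 10 kb, 0.849 per kb, 1.15 with ends capped at the 95th percentile and 1.44 by ends with a read. The ratio of genes to spaces, 0.933, was 0.985 for gene bodies, 1.18 with 5 kb added, 1.14 for 5 kb at gene starts, 1.13 and 1.10 with the start of Ccl2 moved 1 kb up and down, 0.956 by ends with a read, 0.885 capped and 0.853 without top ends. It was 0.855 with the line of both sides, 0.842 with that of the lower side, 1.04 with a monotone decay, 1.02 for fragments of 100 bp or more, 1.13 with a second-cutter site, 1.10 class-scaled, and without Ccl1 and beyond 130 kb 0.810, or 0.994 class-scaled. The median of the 5 gene ratios, 0.775, took in the same order of settings the values 0.873, 0.851, 0.549, 1.04, 0.742, 0.957, 0.847 and 0.709, then 0.733, 1.22, 0.921, 0.788, 1.06 and 1.02, and by 3′ and 5′ ends 0.817 and 0.746. The settings by second-cutter site, by class, by 3′ or 5′ ends and without Ccl1 were chosen after seeing the data. The cause of these moves was not tested. The number of genes at 2 times the expectation, 1, became 0 by ends with a read and with a second-cutter site, where Ccl1 stood just under 2. Ccl1 was above 1 in all 16 alternatives, from 1.17 to 10.4, the latter with the line of the lower side. Ccl11 was below 1 in 15 of 16 and Ccl8 in 15 of 16, while Ccl7 was above 1 in 9 and Ccl12 in 4.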
